A study of Mus musculus with 2 samples.

Results

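The genes described are 51 components of the Wnt signalling pathway: 19 Wnt ligands, 12 Frizzled and Lrp receptors, 6 R-spondins and Lgr receptors, 9 secreted antagonists and 5 genes of secretion and feedback. They were chosen by name, with earlier results of these data known. All 51 were found among the 43346 Ensembl genes of the deposited tables. Total RNA longer than 200 nt was sequenced from the intestine of 2 newborn mice of the B6NCrl strain, aged 0 days, with 10 ng of RNA and added spike-in transcripts per library. The labels place both pups in 1 litter, record no sex and name no treatment, so there is 1 group of 2 animals, called pup 1 and pup 2. Each library came from 1 intestine, and its segments are not named in the labels. Levels are in TPM, the deposited transcript abundance scaled to transcript length, and are given for each pup or as mean ± SD (n = 2). No p-value is given, since with 2 values the smallest p of an exact sign-flip test is 0.5.

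Wnt proteins are lipid-modified ligands that act over short distances. Binding of a Wnt to a Frizzled receptor and the co-receptor Lrp5 or Lrp6 spares beta-catenin from destruction, and beta-catenin then activates target genes together with TCF factors, while other Wnts act on cell polarity and movement without it. In the intestine the pathway maintains the dividing epithelium, R-spondins strengthen it by removing the ubiquitin ligases Znrf3 and Rnf43 from the cell surface, and secreted antagonists limit it.

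Both libraries held tissue of the intestinal wall. All 8 epithelial markers reached 1 TPM in each pup, led by Fabp2, an enterocyte fatty acid binding protein (12825 and 11961 TPM), and Lgals4, a galectin (1893 and 1962 TPM). All 6 smooth muscle markers, led by Actg2 and Acta2, all 8 fibroblast and subepithelial markers, led by Col3a1 and Col1a1, and all 5 mesothelial markers, led by Msln and Upk3b, passed the same level. So did all 7 of enteric neurons and glia, led by Uchl1 and Elavl4, and all 6 of endothelium, led by Plvap and Lyve1. In bulk tissue, fewer cells of a type and less RNA per cell cannot be told apart. The summed expected counts were 44568095 in pup 1 and 34797451 in pup 2, and a count of 0 allows up to 3 counts, or 0.0673 and 0.0862 CPM (counts scaled to library size). Between the pups, the expected counts of the 12 stomach markers summed to 1.91 times as much in pup 2 (95% interval 1.85 to 1.97), with Tff1, Gkn1, Gkn2, Pgc, Barx1 and Muc5ac over 2-fold higher and Atp4b at 0 in both. Another stomach marker, the proton pump subunit Atp4a, was 2.73-fold higher in pup 1 (1.32 to 6.19, from 34 and 10 reads). Nkx2-3, also on this list, held 3156 of its 6909 counts in pup 1 and 2534 of 10568 in pup 2. The ratio of Nkx2-3 was 1.00 (0.95 to 1.06). The exocrine pancreas list, led by Clps and Ctrb1, was 1.33-fold higher in pup 2 (1.28 to 1.38), with Ptf1a at 0 in both. The 16 posterior HOX genes summed to 7.07 times as much in pup 1 (5.80 to 8.69), with Hoxa9, Hoxa10, Hoxa11, Hoxb9, Hoxd10 and Hoxd11 over 2-fold higher and Hoxb13, Hoxc12 and Hoxc13 at 0 in both. The 9 colon and hindgut markers summed to 1.02 times as much in pup 2 (0.98 to 1.06). Of them Slc26a3 was 1.15-fold higher in pup 2 (1.1 to 1.2), Aqp8 1.41-fold higher in pup 1 (1.28 to 1.56), and Car1 over 2-fold higher in pup 1 (6.19 and 0 TPM). The 6 liver markers, led by Afp and Ttr, summed to 1.09 times as much in pup 2 (1.07 to 1.10), but did not move together. Afp (1.23-fold) and Fgb (1.11-fold) were higher in pup 2, with intervals that exclude 1. Ttr (1.13-fold) and Serpina1b (1.40-fold) were higher in pup 1, also with intervals that exclude 1. Alb missed 1 TPM, at 0.79 and 0.86 TPM.

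Of the 51 genes, 26 (51.0%) reached 1 TPM in both pups, against 59.1% of the 21474 protein-coding genes. The classes differed in this share: 4 of 19 Wnt ligands, 10 of 12 Frizzled and Lrp receptors, 3 of 6 R-spondins and Lgr receptors, 4 of 9 antagonists and all 5 secretion and feedback genes passed. Another 15 genes fell below 1 TPM in at least 1 pup but held 10 or more reads over both, and 10 held fewer. Even the highest of them, Sfrp1, exceeded only 64.95% of the protein-coding genes that passed, whose median was 12.6 TPM.

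**Figure D1:**
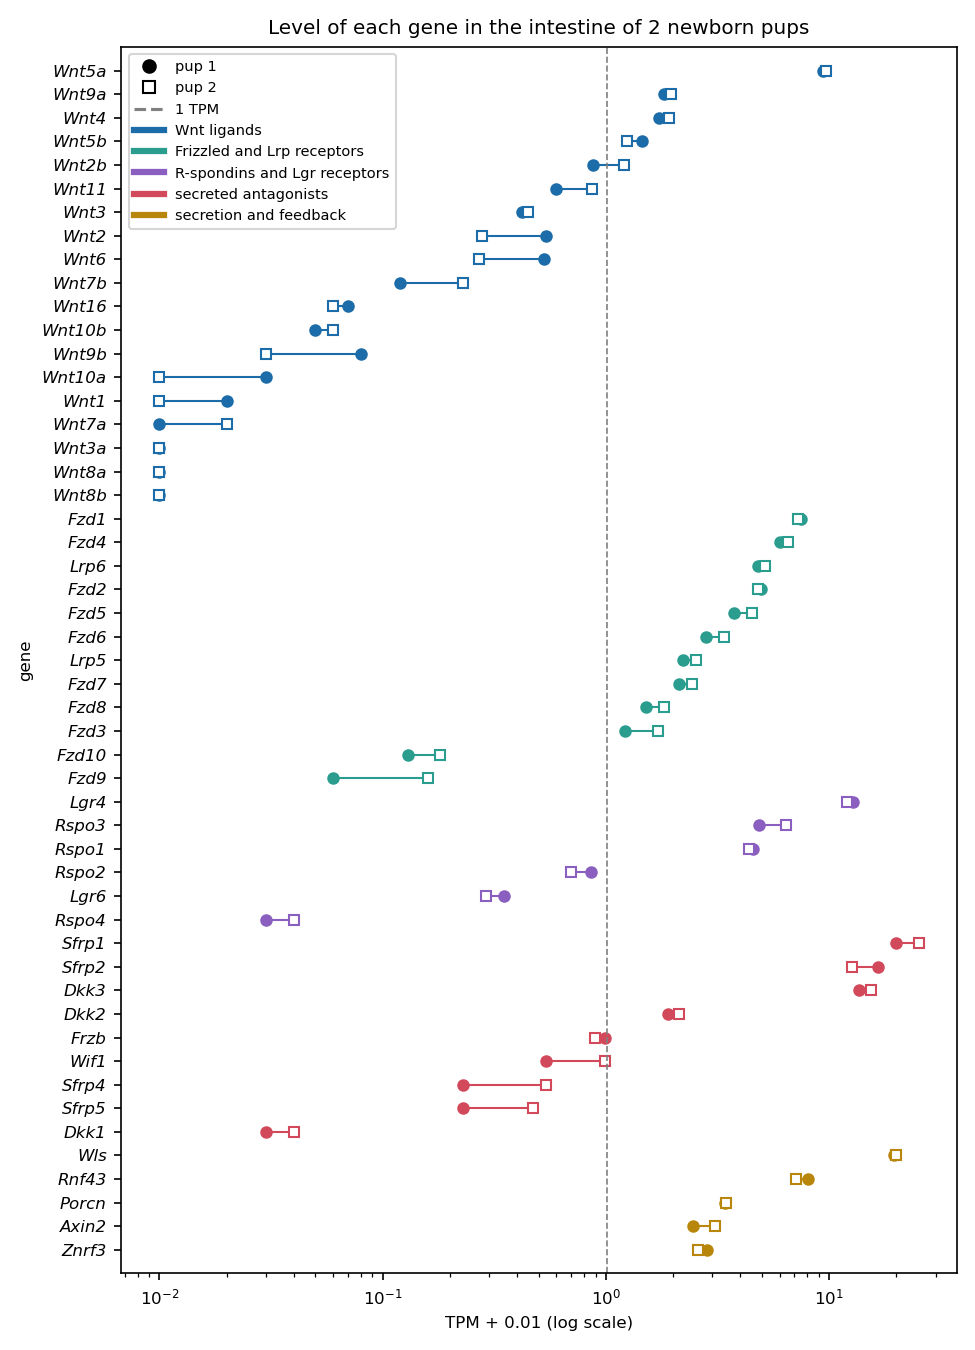
Level of each of the 51 genes in pup 1 (filled circles) and pup 2 (open squares), as TPM + 0.01 on a log axis, coloured by class and ordered within each class by mean, with a dashed line at 1 TPM. Of the 19 ligands, 4 lie to the right of the line in both pups, and 10 of the 12 receptors do.

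Among the ligands, Wnt5a stood above the rest. Wnt5a (ENSMUSG00000021994, chromosome 14, 28504750 to 28527448, GRCm38) encodes the main ligand of the beta-catenin-independent branch and is required for the gut to lengthen in the embryo. It was at 9.40 TPM in pup 1 and 9.67 TPM in pup 2, which was 53.4% and 53.3% of the summed TPM of all 19 ligands. Its nearest relative Wnt5b was at 1.44 and 1.24 TPM, so the log2 ratio of Wnt5a to Wnt5b was 2.75 ± 0.17 (n = 2, on the TPM + 0.1 scale used for all pairs).

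The other ligands at 1 TPM or more lay close together. Wnt9a was at 1.81 and 1.94 TPM. Wnt4, a ligand of kidney and reproductive tract development, was at 1.72 and 1.91 TPM. Wnt9a exceeded Wnt4 by 0.06 ± 0.042 TPM and Wnt4 exceeded Wnt5b by 0.48 ± 0.28 TPM, the same order in both pups. The deposited TPM bounds of Wnt4 ran from 1.49 to 1.91 in pup 1 and from 1.63 to 2.13 in pup 2. They include the Wnt9a values, so the order of Wnt9a and Wnt4 is not settled. Wnt2b, a ligand made by gut mesenchyme, crossed the level in 1 pup only, at 0.87 TPM in pup 1 and 1.2 TPM in pup 2.

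Below that level, 7 ligands including Wnt2b held 10 or more reads. Wnt11, which acts on cell movement, was at 0.59 and 0.86 TPM. Wnt3, the ligand that Paneth cells supply in the mature crypt, was at 0.41 and 0.44 TPM. Wnt2, which acts with Wnt2b in the early lung, was at 0.53 and 0.27 TPM, and Wnt6 at 0.52 and 0.26 TPM. These last 2 were higher in pup 1 on the TPM scale, from 37 and 16 reads for Wnt2 and 25 and 14 reads for Wnt6. Wnt7b was at 0.11 and 0.22 TPM, and Wnt9b at 0.07 and 0.02 TPM.

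The remaining 8 ligands gave almost no signal. Wnt3a, Wnt8a and Wnt8b had no read in either pup, where 3 counts would be 0.0313 and 0.0409 TPM for Wnt3a. Wnt1, Wnt7a, Wnt10a, Wnt10b and Wnt16 had between 1 and 6 reads over both pups. Whether the 3 genes without a read are transcribed below that level cannot be seen at this depth.

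Several Wnt genes sit beside another Wnt gene, and the neighbours differed in level. Wnt9a and Wnt3a lie 16176 bases apart on chromosome 11, on opposite strands. Wnt9a was at least 47.4-fold higher than Wnt3a in both pups, set against the level that 3 counts per library give. Wnt3 lies 24329 bases from Wnt9b on the same chromosome, and the log2 ratio of Wnt9b to Wnt3 was -1.88 ± 0.41. Wnt6 and Wnt10a, 6194 bases apart on chromosome 1, held 25 and 14 reads against 2 and 0. Wnt10b and Wnt1, 11707 bases apart on chromosome 15, both stayed under 10 reads. In each of the first 3 neighbour pairs the same gene was the higher in both pups.

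The start regions of Wnt9a and Wnt3a are shown because a gene with reads and a gene with none lie side by side there. The sequences are RefSeq windows on GRCm38.p6 from 250 bases before to 30 after the transcription start, read 5′ to 3′ on the gene's strand, chr11:59306680-59306959 (+ strand) for Wnt9a and chr11:59290722-59291001 (- strand) for Wnt3a.
Wnt9a: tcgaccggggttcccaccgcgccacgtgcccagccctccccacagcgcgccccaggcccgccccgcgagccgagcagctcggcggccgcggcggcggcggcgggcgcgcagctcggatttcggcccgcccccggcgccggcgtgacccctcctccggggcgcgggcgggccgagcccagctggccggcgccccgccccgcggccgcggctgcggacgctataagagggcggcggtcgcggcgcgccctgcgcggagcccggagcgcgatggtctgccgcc
Wnt3a: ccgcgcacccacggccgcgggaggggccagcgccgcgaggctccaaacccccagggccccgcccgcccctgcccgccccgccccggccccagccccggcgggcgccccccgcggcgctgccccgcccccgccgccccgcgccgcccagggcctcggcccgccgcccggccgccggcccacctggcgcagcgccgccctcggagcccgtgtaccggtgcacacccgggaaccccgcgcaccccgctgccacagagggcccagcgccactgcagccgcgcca
Both are rich in G and C. Over the full 300 bases, to 50 after the start, Wnt9a had 83.3% G + C and 58 CpG, and Wnt3a had 86.3% and 45 CpG, although only Wnt9a had reads.

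Paralogous ligands were unequal as well. Wnt2b exceeded Wnt2 by 1.22 ± 0.84 log2 units, and Wnt4 exceeded Wnt11 by 1.23 ± 0.24. Wnt9a exceeded Wnt9b by 3.79 ± 0.42 log2 units, while Wnt3 was at least 10.8-fold higher than Wnt3a in both pups. Wnt7b held 13 and 20 reads against 0 and 1 for Wnt7a. For Wnt10a and Wnt10b no ratio is given, since both had 3 reads or fewer in each pup.

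**Figure D2:**
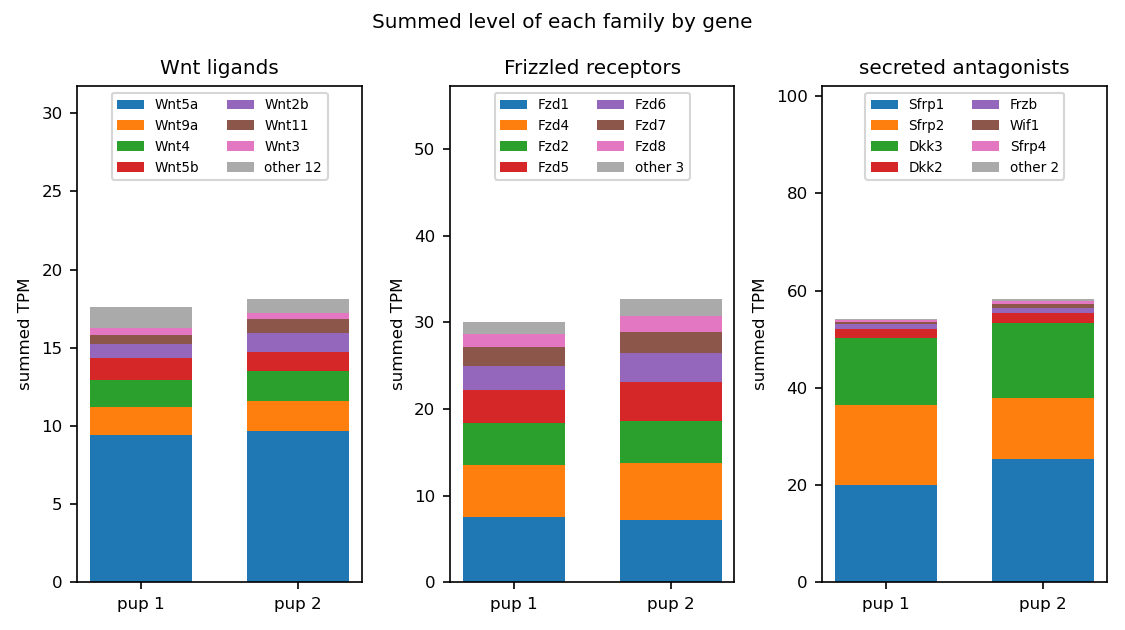
Summed TPM of the Wnt ligands, the Frizzled receptors and the secreted antagonists in each pup, stacked by gene, with the 7 highest genes of each family named and the others in grey. Wnt5a holds 53.4% and 53.3% of the ligand bars, while no Frizzled gene holds more than 25% of the receptor bars.

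The receptors were spread far more evenly than the ligands. Of the 10 Frizzled genes, 8 reached 1 TPM in both pups, and the highest, Fzd1, held 25% and 22.1% of the summed Frizzled TPM. Fzd1 was at 7.49 and 7.24 TPM. Fzd4, which also serves as the receptor of norrin, was at 6.00 and 6.56 TPM. Fzd2 was at 4.94 and 4.78 TPM. Fzd5, required for Paneth cell maturation later in life, was at 3.76 and 4.50 TPM. Fzd6, a receptor of planar cell polarity, was at 2.79 and 3.37 TPM. Fzd7, a receptor of intestinal stem cells, was at 2.12 and 2.43 TPM. Fzd8 was at 1.5 and 1.81 TPM, and Fzd3, the partner of Fzd6 in planar polarity, at 1.21 and 1.70 TPM. These 8 kept their order in both pups, each exceeding the next by more than the SD of the difference. The deposited TPM bounds of Fzd8 and Fzd3 overlapped in both pups (1.27 to 1.71 and 1.02 to 1.37 in pup 1). In pup 2 so did those of Fzd1 and Fzd4, and those of Fzd2 and the main Fzd5 transcript. The order within these neighbours is thus not settled. Fzd10 (0.12 and 0.17 TPM) and Fzd9 (0.05 and 0.15 TPM) lay far below, so Fzd4 exceeded Fzd9 by 5.04 ± 0.43 log2 units.

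Within receptor subfamilies, ratios were modest and similar between the pups. Fzd1 and Fzd2 exceeded their relative Fzd7 by 1.66 ± 0.17 and 1.07 ± 0.17 log2 units. Fzd5 exceeded Fzd8 by 1.27 ± 0.0017 and Fzd6 exceeded Fzd3 by 1.04 ± 0.14. The co-receptor Lrp6 was at 4.79 and 5.18 TPM and Lrp5 at 2.21 and 2.52 TPM, a log2 ratio of 1.05 ± 0.050. Lrp6 and Fzd2 changed places between the pups and differed by less than the SD (0.13 ± 0.39 TPM).

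Fzd7 is shown because, of the Frizzled start regions at hand, only its window held one of the TCF letter strings searched. These were CTTTG followed by 2 letters that are each A or T, on either strand. The window is chr1:59481897-59482176 (+ strand), and the capitals mark CTTTGTT read on the other strand, 130 bases before the start.
Fzd7: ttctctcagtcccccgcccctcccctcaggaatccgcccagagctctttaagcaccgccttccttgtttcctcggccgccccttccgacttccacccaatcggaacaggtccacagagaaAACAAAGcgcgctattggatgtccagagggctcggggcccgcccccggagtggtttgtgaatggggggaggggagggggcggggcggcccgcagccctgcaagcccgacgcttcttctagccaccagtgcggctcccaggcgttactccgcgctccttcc
Such letters were found in 5 of the 38 start windows of these genes (13.2%), those of Dkk1, Fzd7, Wnt11, Wnt3 and Wnt5b. All protein-coding windows of the same 300 bases held them in 14.7% of cases, and all 32851 windows in 16.9%. A match describes letters and not a binding site.

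Among the 6 R-spondin and Lgr genes described, which do not include Lgr5, Lgr4 was the highest. Lgr4 (chromosome 2, 109917647 to 110014257), a receptor for R-spondins present on many epithelia, was at 12.77 and 12.05 TPM. Its relative Lgr6 was at 0.34 and 0.28 TPM, a log2 ratio of 4.93 ± 0.091 or 30.6-fold. Of the ligands of this receptor family, Rspo3 was at 4.83 and 6.40 TPM and Rspo1 at 4.57 and 4.39 TPM. The difference between these 2 was within its SD, with a log2 ratio of 0.31 ± 0.32. Rspo2, at 0.85 and 0.69 TPM, was lower than Rspo3 by a log2 ratio of Rspo3 to Rspo2 of 2.71 ± 0.47. Rspo4 had 2 reads in each pup.

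Secreted antagonists were the most abundant class, with a summed level of 56.2 ± 2.99 TPM against 17.9 ± 0.38 TPM for the 19 ligands. Nearly all of it came from 3 of the 9 genes. Sfrp1 (chromosome 8, 23411502 to 23449632), which binds Wnt proteins outside the cell, was at 20.00 and 25.29 TPM. Sfrp2, of the same family, was at 16.58 and 12.64 TPM. Dkk3, a divergent Dickkopf protein whose action on Wnt signalling is debated, was at 13.67 and 15.42 TPM. Sfrp1 was the highest in both pups, but Sfrp2 and Dkk3 changed places and differed by less than their SD (0.065 ± 4.02 TPM). Sfrp1 exceeded Sfrp2 by 0.63 ± 0.51 log2 units and Sfrp5 by 5.74 ± 0.33.

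The Dickkopf proteins that block Lrp5 and Lrp6 were low. Dkk2 was at 1.89 and 2.11 TPM, so Dkk3 exceeded it by 2.80 ± 0.015 log2 units, and Dkk1 had 2 reads in each pup. Frzb was at 0.98 and 0.88 TPM, and Wif1, which binds Wnt proteins directly, at 0.53 and 0.98 TPM. Sfrp4 was at 0.22 and 0.53 TPM, and Sfrp5 at 0.22 and 0.46 TPM. The log2 ratio of Sfrp4 to Frzb was -1.20 ± 0.79, with Frzb higher in both pups.

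All 5 genes of secretion and feedback passed 1 TPM in both pups. Wls, the carrier that brings Wnt proteins to the cell surface, was at 19.63 and 19.95 TPM. Porcn, the enzyme that attaches their lipid, was at 3.41 and 3.45 TPM, and the log2 ratio of Wls to Porcn was 2.49 ± 0.0049. Rnf43, which removes Frizzled receptors from the surface, was at 8.01 and 7.11 TPM, and Znrf3, which does the same, at 2.82 and 2.59 TPM. Per length, Rnf43 was 2.73-fold higher than Znrf3 (log2 ratio of Znrf3 to Rnf43 -1.45 ± 0.036). On expected counts not scaled to length the log2 ratio was -0.45, and more than 50% of the TPM of Rnf43 lay on non-coding transcripts (54.4% and 56.0%). Axin2, a beta-catenin target that acts back on the pathway as a scaffold of beta-catenin destruction, was at 2.46 and 3.06 TPM. Axin2 and Znrf3 changed places between the pups and differed by less than their SD.

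Of the 27 gene pairs compared, the higher gene on the TPM + 0.1 scale was the same in both pups for all 27, including pairs whose lower gene had almost no reads. The mean log2 ratio exceeded the SD in 26, the exception being Rspo3 to Rspo1, and 23 means were over 2-fold. The pairs were chosen with earlier results of these data known, so these counts describe the chosen pairs only.

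The start region of Axin2 is shown as that of a widely used target gene. None of the TCF letter strings lay in its window, chr11:108920099-108920378 (+ strand), which says nothing of sites elsewhere.
Axin2: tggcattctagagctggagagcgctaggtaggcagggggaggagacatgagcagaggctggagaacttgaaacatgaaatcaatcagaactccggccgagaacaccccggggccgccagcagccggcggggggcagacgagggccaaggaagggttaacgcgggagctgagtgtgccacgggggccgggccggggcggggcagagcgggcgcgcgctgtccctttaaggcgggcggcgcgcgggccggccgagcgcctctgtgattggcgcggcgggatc
Start windows were matched for 34 of the 51 genes. Windows were not matched for Wnt5a, Wnt7b, Wnt8a, Wnt10a, Fzd2, Fzd3, Fzd6, Fzd8, Lrp5, Lrp6, Rspo2, Rspo3, Dkk3, Sfrp1, Sfrp4, Porcn and Znrf3. The 38 windows had a median of 66.5% G + C and 24.5 CpG, against 56.3% and 13 over all protein-coding windows. Windows of genes that missed 1 TPM in a pup had medians of 67.7% G + C and 26 CpG (21 windows), and those of the genes that passed had 66% and 22 CpG (17 windows).

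Other pathway genes were counted from 4 further lists. Of 19 genes of cytoplasmic and nuclear transduction, 17 reached 1 TPM in both pups. Ctnnb1, which encodes beta-catenin, led (201.96 and 199.05 TPM), followed by Csnk1a1, a kinase of the destruction complex (104.65 and 113.09 TPM). Next were Tcf7l2, the main TCF factor of gut epithelium (25.75 and 29.46 TPM), and Gsk3b, another kinase of the destruction complex (21.68 and 24.41 TPM). Of 14 co-receptor and planar polarity genes, 10 passed, led by the receptors Ryk (19.23 and 17.90 TPM) and Ptk7 (11.76 and 10.94 TPM), the glypican Gpc4 (17.02 and 17.34 TPM) and the Wnt5a receptor Ror2 (7.91 and 6.64 TPM). Of 9 other secreted or surface modulators, 5 passed, led by Igfbp4 at 138.50 and 138.91 TPM, followed by Kremen1, Tpbg and Kremen2 at 5.28 TPM or less. Sost and Dkk4 had no read. Of 15 target genes, 13 passed, or 10 of 12 without Rnf43, Znrf3 and Axin2, which are also among the 51 genes, and Lef1 and Tcf7 are counted in the transduction list too. The highest were the cyclin Ccnd1 (32.15 and 33.39 TPM), Sox9 (12.76 and 13.33 TPM), Nkd1 (10.03 and 11.13 TPM) and Cd44 (8.50 and 7.74 TPM). No gene of these 4 lists was over 2-fold apart between the pups.

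For 41 of the 51 genes, counts allowed a comparison of the littermates. Between-pup ratios were taken from expected counts scaled to library size, with exact Clopper-Pearson 95% intervals that cover counting error only and compare 2 libraries, not conditions. A gene with 10 or more summed counts was called over 2-fold apart when the whole interval exceeded 2 or fell short of 0.5. Of the 41 genes, 0 were called, against 0.796% of the 19088 genes tested (0.43% higher in pup 2 and 0.367% higher in pup 1). The ratio lay within 1.5-fold for 32 of the 34 genes with 50 or more summed counts, against 95.4% of all such genes. The median size of the log2 ratio was 0.21 over the 41 genes and 0.13 over all genes tested. The first 2 shares are near those over all genes and are no result about these genes.

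**Figure D3:**
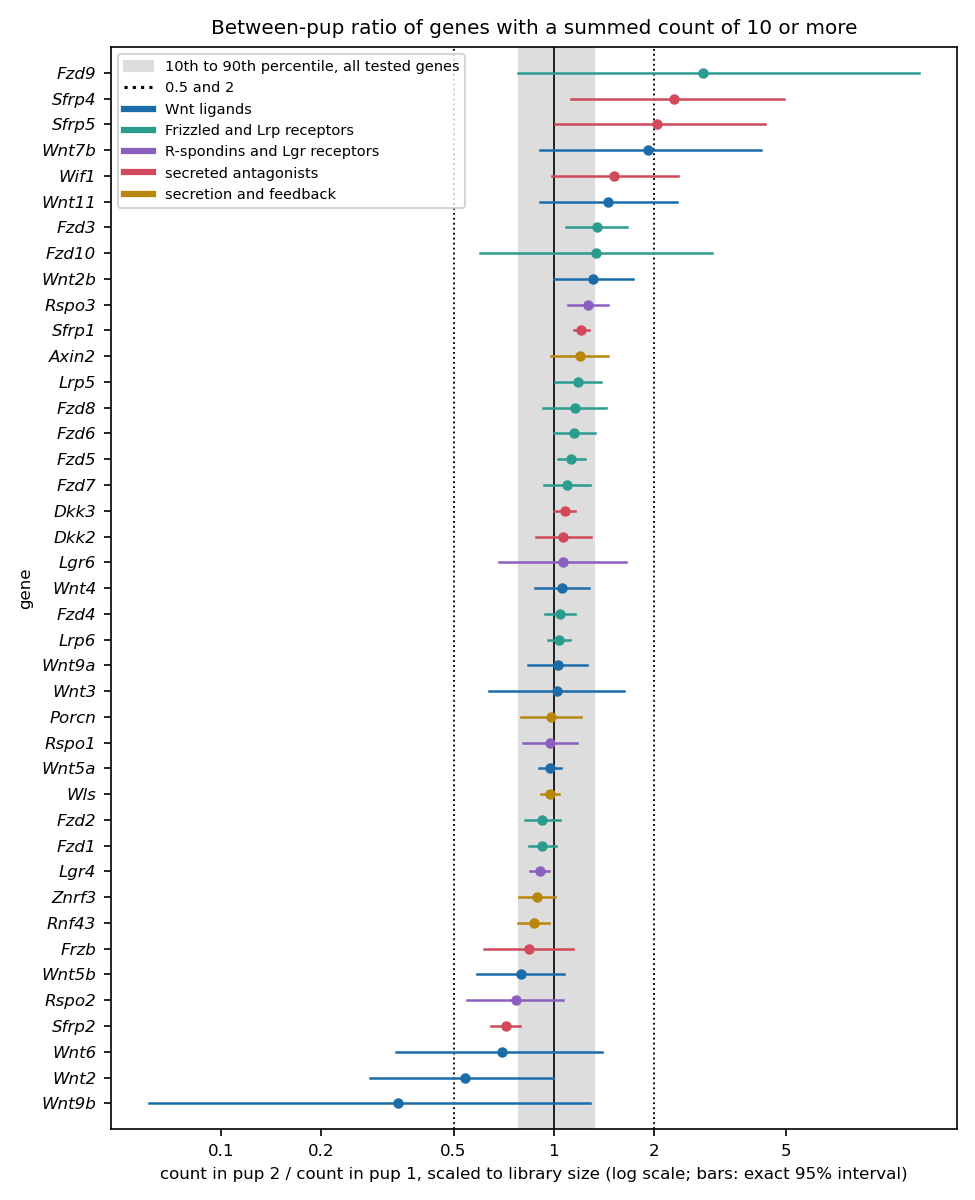
Ratio of the scaled count in pup 2 to that in pup 1 for the 41 genes with 10 or more summed counts, on a log axis with exact 95% intervals of counting error, coloured by class. The grey band holds the middle of all genes tested, from the 10th to the 90th percentile, dotted lines mark 0.5 and 2, and no interval lies wholly outside the dotted lines.

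For 13 of the 41 genes (31.7%) the interval excluded 1, against 29.6% of all genes tested. In pup 2, 9 were higher (Wnt2b, Fzd3, Fzd5, Lrp5, Rspo3, Dkk3, Sfrp1, Sfrp4 and Sfrp5), where the share over all genes tested was 13%. In pup 1, 4 were higher (Wnt2, Lgr4, Sfrp2 and Rnf43), against 16.6%. By class, these 13 were 5 of the 8 antagonists tested, 3 of 12 receptors, 2 of 5 R-spondin and Lgr genes, 2 of 11 ligands and 1 of 5 secretion and feedback genes. These directions are relative to the bulk of genes: scaled to the spike-in totals, every ratio was 2.14-fold higher, the 4 genes higher in pup 1 turned to higher in pup 2, and 15 of the 41 genes were called over 2-fold apart.

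Relative to the bulk of genes, the related antagonists Sfrp1 and Sfrp2 lay on opposite sides. Sfrp1 had 3073 and 2978 reads in pups 1 and 2, which after scaling was 1.21-fold more in pup 2 (1.15 to 1.27). Sfrp2 had 1135 and 652 reads, 1.40-fold more in pup 1 (1.27 to 1.54). Sfrp4, with 13 and 24 reads, was 2.30-fold higher in pup 2 (1.13 to 4.92), and Sfrp5, with 14 and 23 reads, 2.05-fold (1.01 to 4.31), so both intervals reach down to nearly 1.

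Among genes with 50 or more summed counts, the highest ratios of pup 2 to pup 1 were those of Wif1 (1.52, 0.99 to 2.36), Wnt11 (1.46, 0.91 to 2.34) and Fzd3 (1.35, 1.09 to 1.66). The lowest were those of Wnt2 (0.54, 0.28 to 0.99), Sfrp2 (0.72, 0.65 to 0.79) and Rspo2 (0.77, 0.55 to 1.07). Wif1, Wnt11 and Rspo2 thus had intervals that include 1. The summed stomach and pancreas lists were higher in pup 2 and the summed posterior HOX genes in pup 1, as given above, and their part in these differences was not tested. The smooth muscle and mesothelial lists summed to 1.006 and 1.06 times as much in pup 2, and the epithelial list to 0.912 times as much. Most of the epithelial sum was Fabp2 (399384 of 632606 expected counts in pup 1), whose own ratio was 0.891. Of the 8 epithelial markers, 5 were lower in pup 2 and 3 higher, among the latter Vil1 (1.07, 1.05 to 1.10).

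Transcript tables showed which forms of the 26 genes carried the reads. In 12 genes, 1 annotated transcript held all reads in both pups, among them Sfrp1, Wls, Dkk3, Rspo3 and Wnt4. All of these 12 except Fzd3 had only 1 annotated transcript, so for them this outcome was fixed by the annotation. Protein-coding transcripts held 90% or more of the gene's TPM in both pups for 21 genes. The 5 exceptions were Wnt5a, Lrp5, Porcn, Rnf43 and Axin2. Of the 21, only Fzd3, Lgr4, Lrp6, Rspo1 and Sfrp2 had a form of another type annotated, so the share was fixed for the rest.

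In Rnf43, protein-coding transcripts held 45.6% and 44.0% of the TPM. The leading form was a retained-intron transcript, Rnf43-206, at 33.2% and 38.7%. In Axin2 the protein-coding share was 45.1% and 57.8%, and the leading form was the non-coding processed transcript Axin2-203, at 54.9% and 42.2%. Lrp5 had 67.4% and 84.1% on protein-coding forms, with most of the rest on Lrp5-203, a form annotated for nonsense-mediated decay (32.1% and 15.5%). Wnt5a had 88.0% and 88.9% on 2 protein-coding forms, Wnt5a-202 (47.2% and 51.3%) and Wnt5a-201 (40.8% and 37.6%), in the same order in both pups. Rnf43 and Axin2 thus had less than 60% of their TPM on coding forms in either pup.

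**Figure D4:**
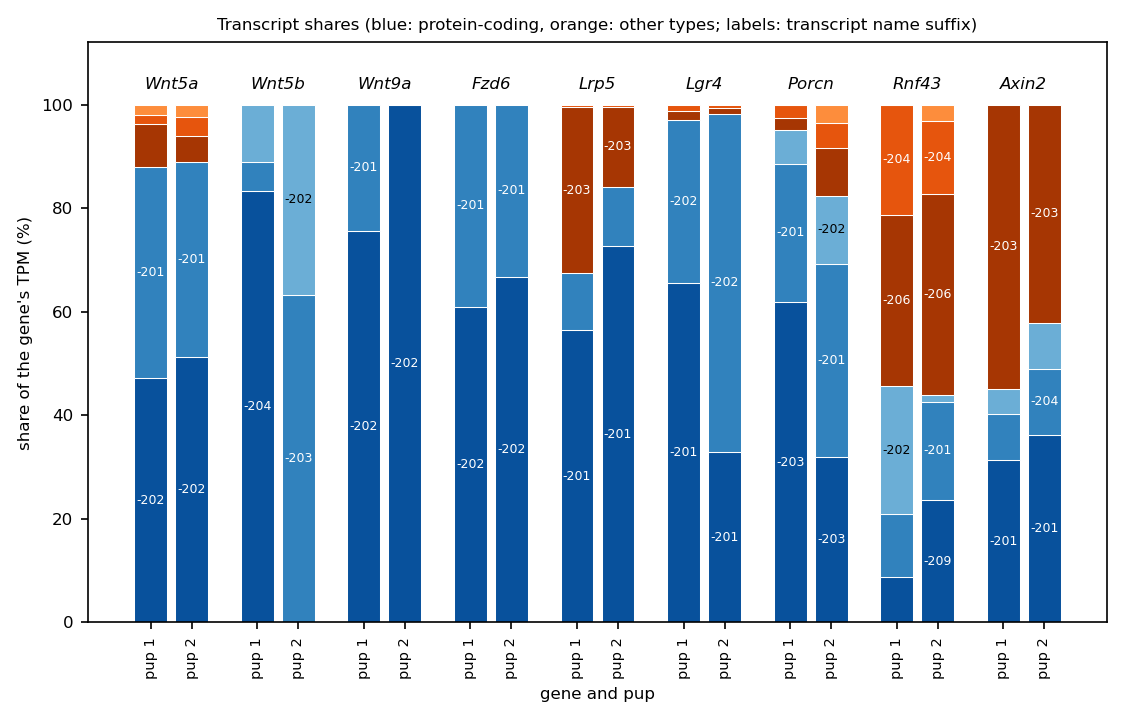
Share of each gene's TPM held by each annotated transcript in pup 1 and pup 2, for 9 genes with reads on more than 1 transcript, in percent, with protein-coding forms in blue and other types in orange. Rnf43 and Axin2 hold the largest orange shares, and Lgr4-201 and Lgr4-202 change places between the pups.

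The leading transcript was the same in both pups for 23 of the 26 genes and differed for Lgr4, Porcn and Wnt5b. The 23 include the genes with only 1 annotated transcript, for which no other outcome was possible. Lgr4-201 held 65.6% of the TPM in pup 1 and 33.0% in pup 2, and Lgr4-202 held 31.5% and 65.3%. These 2 forms differ by coding exon 2 of 18, of 72 bases (chromosome 2, 109970692 to 109970763), which only Lgr4-201 includes. The authors' posterior mean counts were 1564 ± 259 and 588 ± 140 for Lgr4-201 and 637 ± 259 and 1015 ± 140 for Lgr4-202 (the deposited posterior SD in each pup). The authors' deposited TPM bounds for Lgr4-201 ran from 6.24 to 11.3 in pup 1 and from 2.37 to 6.23 in pup 2 and so barely failed to overlap. Those for Lgr4-202, from 0.865 to 5.89 in pup 1 and from 5.32 to 9.31 in pup 2 in the authors' deposited table, did overlap. In Porcn, Porcn-203 led in pup 1 (61.9%, and 31.9% in pup 2) and Porcn-201 in pup 2 (37.4%, and 26.7% in pup 1), both of them protein-coding, and the deposited bounds of each overlapped between the pups.

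Wnt5b has several starts, and most of its reads went to the farthest upstream one. The transcripts Wnt5b-203 and Wnt5b-204, which share that start, together held 88.9% of the TPM in pup 1 and 63.2% in pup 2. Wnt5b-202, from the middle start, held 11.1% and 36.8%, and Wnt5b-201, from the start nearest the coding exons, was listed at 0 in both. The authors' posterior mean counts instead gave Wnt5b-201 9.92 and 12.65 reads, so the gene's 116 and 74 reads do not fix this share closely. The windows of the 3 starts are shown because they differ in composition, at chr6:119544318-119544597, chr6:119467182-119467461 and chr6:119449357-119449636 (all - strand), with CTTTGAT in capitals 71 bases before the nearest start.
Wnt5b upstream start: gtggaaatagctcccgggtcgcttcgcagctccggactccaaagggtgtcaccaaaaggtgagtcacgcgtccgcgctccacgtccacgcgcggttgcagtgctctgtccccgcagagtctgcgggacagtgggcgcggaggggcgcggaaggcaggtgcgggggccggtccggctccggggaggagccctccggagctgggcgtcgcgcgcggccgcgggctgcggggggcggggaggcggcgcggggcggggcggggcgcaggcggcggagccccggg
Wnt5b middle start: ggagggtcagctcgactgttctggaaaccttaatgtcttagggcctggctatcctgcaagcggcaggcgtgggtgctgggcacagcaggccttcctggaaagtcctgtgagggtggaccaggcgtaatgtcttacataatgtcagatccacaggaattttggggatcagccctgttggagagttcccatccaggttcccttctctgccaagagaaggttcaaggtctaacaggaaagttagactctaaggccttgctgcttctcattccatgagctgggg
Wnt5b nearest start: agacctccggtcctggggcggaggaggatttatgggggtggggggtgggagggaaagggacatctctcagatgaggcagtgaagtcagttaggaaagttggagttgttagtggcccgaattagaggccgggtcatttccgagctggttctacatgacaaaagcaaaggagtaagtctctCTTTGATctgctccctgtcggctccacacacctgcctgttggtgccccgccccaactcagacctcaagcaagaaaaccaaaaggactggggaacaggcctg
The upstream window held 47 CpG in 300 bases, the middle one 4 and the nearest one 7.

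Reads of overlapping genes could enter some of these values. An annotated gene overlapped 16 of the 51 genes, for 15 of them on the opposite strand, and the sources used here do not say whether the counting used strand. The largest such overlap was Wnt5b with Fbxl14 (333 and 278 reads, against 116 and 74 for Wnt5b). For Wnt5a the antisense gene Gm2670 held 22.7 and 21.5 reads, and for Sfrp2 the antisense gene Gm26771 held 27.8 and 26.5. Sharing of reads with near-identical genes was small, since the deposited posterior SD of the gene count was 0 in both pups for 46 of the 51 genes and at most 3.51 reads, in Sfrp2.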

How the data were processed

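Total RNA of 2 newborn mouse intestines was sequenced as 1 library each. The authors deposited a gene and a transcript table per library, with expected counts (estimates in which shared reads are split, so not always whole), TPM and FPKM, posterior means and SDs of the counts, and bounds of the TPM used here as a deposited signal, per the file headers. The transcript tables also hold the deposited percent of each isoform. The assembly was mm10 with GENCODE M4, per the text files deposited with the tables. The sources used here do not give the aligner or quantifier, or say whether strand was used in counting.

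Symbols and positions came from GENCODE M21 (GRCm38) for 42462 of 43346 genes (98.0%). Promoter windows came from RefSeq (GRCm38.p6). Library sizes were scaled with TMM factors (edgeR 4.0.16, R 4.3.3) on counts of all genes rounded to whole numbers, and intervals came from SciPy 1.17.1. Tables and plots used Python 3.11.15, numpy 2.4.6, pandas 2.3.3 and matplotlib 3.10.9. DESeq2 1.42.0 gave alternative size factors. Transcript shares are shares of the gene's summed TPM. Pair ratios used log2(TPM + 0.1).

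The members, gene lists and pairs were chosen with earlier results of these data known. Named were all 51 members, the 3 highest and 3 lowest between-pup ratios at 50 or more summed counts, the 4 highest genes of each pathway list with those under 0.1 TPM in both pups, the 2 highest of each marker list with those without a read, and all over 2-fold apart. A few further markers were named to show the spread within a list. On simulated data made from these libraries (19072 genes), the 2-fold rule called 0 of 50 genes changed 1.5-fold, 47 of 50 changed 3-fold and 1 of 18872 unchanged. Of the 18872 unchanged in those data, 4.31% had an interval that excludes 1, against 29.6% of the genes tested in the deposited counts. How often the 2-fold rule calls unchanged genes in the deposited counts was not tested. The reads carry no molecular identifiers and are not independent molecules, so that intervals cover counting error only. No sample was left out. The alternatives tried were other detection levels, scalings, count minimums, fold bounds, pseudocounts and estimates.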

Additional observations from a re-analysis of the deposited data

How the results depend on the processing

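The number of genes that reached 1 TPM in both pups was 26 and ranged from 20 (at 2 TPM) to 31 (at 0.5 TPM), with 27 in pup 2 alone and 26 in pup 1 alone. The count of genes over 2-fold apart was 0 under DESeq2 size factors, library totals, other count minimums, other fold bounds and posterior mean counts. Scaled to spike-in totals it was 15, with 29.4% of all genes called. The spike-ins held 534 and 200 reads and raised every between-pup ratio 2.14-fold against TMM scaling. The cause was not tested.

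Of the 27 pairs, 23 were over 2-fold, and 12 with a pseudocount of 1 TPM, which shrinks ratios of low genes by construction. Of 162 pair values under alternatives, 160 kept their direction. With the posterior mean TPM, Wnt7b to Wnt7a turned to -0.76 and Wnt10a to Wnt10b to 0.048 (log2). The cause was not tested. Between 19 and 22 genes had 90% or more of their TPM on protein-coding transcripts, including genes with no other type annotated. The share itself moved to 61.8% in Axin2 and 58.5% in Rnf43 (means over the pups) when taken from expected counts, which weight long transcripts more.

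No paired analysis was possible because the 2 samples form 1 group. With 2 littermates, spread between litters was not measured, and genes under 10 summed reads have no ratio.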
